A study of Mus musculus with 13 samples.

Results

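The genes described here are the mouse fetuins Fetub and Ahsg and the cystatins Cst3, Cst6 and Cstb, measured by bulk RNA-seq in enamel organs, the dental epithelium that forms tooth enamel. They are 5 of the 48709 genes in the count table and were matched by gene symbol. The organs came from lower-jaw incisors, and all mice were 11 days old. The Het group holds 5 mice heterozygous for the Tgfbr2 substitution G357W, a model of Loeys-Dietz syndrome in which the type II TGF-beta receptor is altered on 1 of the alleles. The WT group holds 8 wild-type littermates, and no other allele or agent is named for either group. Each library stands for 1 mouse. The members were chosen by their Het and WT counts in these same libraries, above all the higher values of Fetub in Het, so their Het and WT values are a description. The p-values printed for them come from the contrast that chose them and are no independent test.

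Cystatins are small inhibitors of cysteine proteases, chiefly the cathepsins of lysosomes. Cstb (cystatin B, a stefin) acts inside cells, whereas Cst3 (cystatin C) and Cst6 (cystatin M/E) are secreted, and both also inhibit legumain, an asparagine-specific protease. Fetuins are secreted glycoproteins built on cystatin domains. Ahsg (fetuin-A) is made mainly by the liver, circulates in plasma and binds calcium phosphate, which keeps mineral from forming in soft tissue and brings the protein into bones and teeth. Fetub (fetuin-B) inhibits some metalloproteases of the astacin family, among them the egg protease ovastacin.

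Het libraries held 20266079 to 26122340 total counts, and WT libraries 18852382 to 26508410. Summed secretory ameloblast markers (6 genes, including Amelx and Ambn) reached 193000 to 279000 CPM (a library's counts scaled per 1e+06, with trimmed-mean, or TMM, factors) in Het and 145000 to 288000 CPM in WT, so ameloblast RNA was abundant in all libraries. Mesenchyme markers (5 genes, including Col1a1) summed to 4350 to 9690 CPM in Het and 5260 to 11600 CPM in WT, so RNA of other cells was present. Tgfbr2 itself had a log2 fold change of 0.22 ± 0.11 (SE), and gene counts do not tell its alleles apart. The library names carry a number before a hyphen (1, 4 or 5), called the library prefix here, which the labels do not explain. There are 1 Het and 3 WT libraries with prefix 1, 2 Het and 3 WT with prefix 4, and 2 Het and 2 WT with prefix 5. WT 4-4 stood apart from the other WT libraries for Fetub and Cst6. Some values of these genes that it moves, but not all, are also given without it, a comparison chosen after seeing the data.

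The fetuin genes are neighbours on chromosome 16 (GRCm38). Ahsg (ENSMUSG00000022868) lies at 22891277 to 22899449 and Fetub (ENSMUSG00000022871) at 22918334 to 22939778, both on the plus strand. RefSeq (GRCm38.p6) gives Fetub an upstream and a downstream start, 1840 bases apart, and Ahsg 1 start. The 250 bases before the upstream Fetub start and before the Ahsg start are shown because Fetub was detected here in every library and Ahsg in none. Capitals mark the longest run of letters that both windows share, CTGTTTGCAAG, which begins 43 bases before the Fetub start and 80 bases before the Ahsg start.
Fetub, chr16:22918132-22918381, plus strand: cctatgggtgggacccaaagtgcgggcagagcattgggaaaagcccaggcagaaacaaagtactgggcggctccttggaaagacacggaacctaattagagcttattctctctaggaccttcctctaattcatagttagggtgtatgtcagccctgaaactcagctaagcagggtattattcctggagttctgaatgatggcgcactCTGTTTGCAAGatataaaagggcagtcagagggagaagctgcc
Ahsg, chr16:22891765-22892014, plus strand: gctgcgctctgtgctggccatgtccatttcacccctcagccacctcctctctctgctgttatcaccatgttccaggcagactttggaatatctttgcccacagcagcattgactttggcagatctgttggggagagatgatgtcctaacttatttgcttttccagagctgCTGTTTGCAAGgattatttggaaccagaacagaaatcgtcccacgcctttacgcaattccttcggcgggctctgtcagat

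Read on both strands, that run of 11 letters occurs in 13 of the 32851 RefSeq windows of the same length (0.0396%). The run was found by comparing these windows, so its presence in them is a description. TATAAA, the letters of a TATA element, occurs 31 bases before the upstream Fetub start, is not in the Ahsg window, and is in 12.4% of all windows. CAGAC, the short letters that SMAD proteins bind, occurs 174 bases before the Ahsg start, is in neither Fetub window, and is in 42.2% of all windows. None of these motifs overlaps another. Counts per gene do not tell which Fetub start was used.

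Fetub was higher in every Het library than in any WT library. Its level was 31.3, 33.1, 27.1, 28.5 and 34.7 CPM in the 5 Het libraries. Across the 8 WT libraries it had a lowest value of 7.65 CPM, a median of 17.9 CPM and a highest value of 19.7 CPM. The lowest Het value thus lay above the highest WT value, and the lowest WT value, from WT 4-4, lay far below the other 7, which ranged from 16.9 to 19.7 CPM. Over all genes tested, 0.257% had every Het library above every WT library, and 0.49% had ranges apart in either direction.

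The mean level of Fetub was 30.9 ± 3.15 CPM in Het (SD, n = 5) and 16.8 ± 3.82 CPM in WT (SD, n = 8), a 1.84-fold difference (log2 fold change 0.88 ± 0.16, SE). This is the value for which the set was chosen: in the edgeR quasi-likelihood fit of all 16328 genes its adjusted p was 0.0343 (Benjamini-Hochberg). In that fit 1 of the 4 members tested was past the threshold of 0.05, against 0.0857% of all genes tested. Of all genes tested, 0.0429% were called higher and 0.0429% lower in Het, and nothing is read from the count of members. Without WT 4-4 the WT mean was 18.1 ± 1.00 CPM (SD, n = 7), the log2 fold change 0.77 and the edgeR adjusted p 0.00198. Leaving out 1 library at a time, the edgeR adjusted p missed the threshold in 8 of 13 cases (0.0583 to 0.115: Het 1-2, 4-2, 5-5 and 5-6, and WT 1-1, 1-3, 1-4 and 4-3), while the log2 fold change stayed between 0.77 and 0.93.

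Within prefixes 1, 4 and 5, the difference of mean log2 CPM for Fetub, Het minus WT, was 0.82, 1.16 and 0.71. In prefix 4 it was 0.76 without WT 4-4. The direction within prefixes is fixed by the lack of overlap between the groups. The sizes come from the same values for which Fetub was chosen, so they are a description. In bulk samples, more Fetub-expressing cells and more Fetub RNA per cell cannot be told apart. The 6 markers of maturation ameloblasts, the later stage of enamel formation, all had negative log2 fold changes (median -0.30), none past the edgeR threshold. Their sums, made up mostly of Odam, were 26800 to 51800 CPM in Het and 39700 to 55100 CPM in WT. Markers of odontoblast and pulp, osteoblast and skeletal muscle were likewise all negative (medians -0.30, -0.09 and -0.30). Every other marker list held both signs among its tested genes, such as stratum intermedium and papillary layer (3 positive, 1 negative, median 0.14). The part of these cell types in the Fetub difference was not tested.

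Ahsg and Fetub are both known as liver genes, so 10 markers of liver cells and plasma proteins were examined. Of these, Alb, Fgb and Fga had 0 counts in all 13 libraries. The summed level of all 10 was 1.20 to 2.75 CPM in Het and 0.581 to 2.01 CPM in WT, below the lowest Fetub level of 7.65 CPM. Most of their 480 counts came from Fgg (293 counts) and Apoa1 (136 counts), which passed the filter. Neither was called between Het and WT (edgeR adjusted p = 0.989 and 0.741). Het minus WT in log2 units was -0.05 ± 0.46 for Fgg and 1.08 ± 0.54 for Apoa1 (± SE), so Apoa1 was on average higher in Het, as Fetub was. Apoa1 was low and overlapped, at 0.141 to 1.60 CPM in Het and 0.0794 to 0.556 CPM in WT. Whether the Apoa1 and Fetub differences are related was not tested.

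Ahsg had 0 counts in all 5 Het and all 8 WT libraries. With 3 counts as the limit that a count of 0 allows, each Het library allows at most 0.106 to 0.139 CPM and each WT library at most 0.117 to 0.162 CPM, a limit that covers counting error only. Ahsg did not pass the filter on low counts and was in no test, so 4 of the 5 members were tested. An annotated antisense gene, Gm30505, overlaps Ahsg but is not among the genes of the count table.

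**Figure D1:**
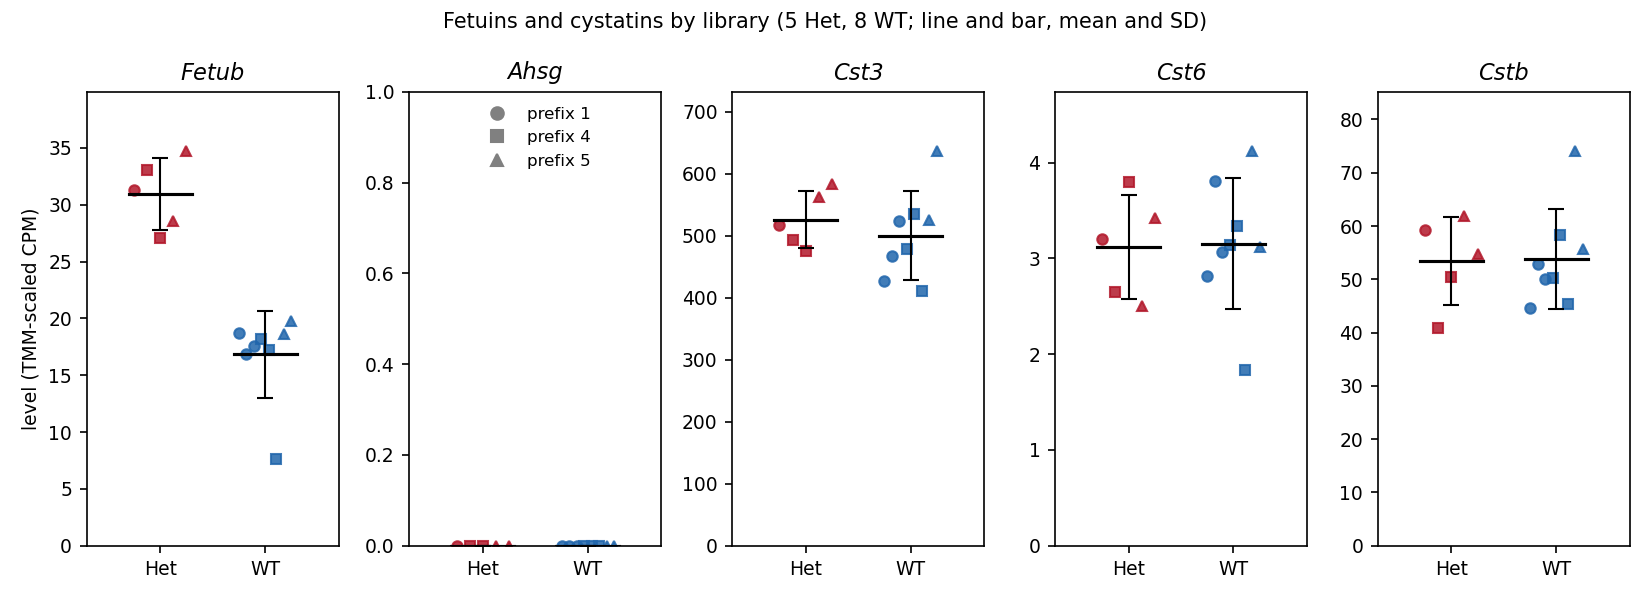
Level of each fetuin and cystatin (TMM-scaled CPM, linear axes that start at 0) in 5 Het and 8 WT libraries, with the mean and SD as black lines and the library prefix as the marker shape. The Het and WT points are apart for Fetub, with WT 4-4 at 7.65 CPM below the rest, they overlap for Cst3, Cst6 and Cstb, and all points are at 0 for Ahsg.

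The genes around Fetub on chromosome 16 were set beside it. The count table holds 21 genes that lie within 250 kb of Fetub, of which 6, Fetub included, passed the filter and 7 were at 0 in all libraries. The next gene downstream of Fetub, Hrg (histidine-rich glycoprotein, a plasma protein with cystatin domains), had 2 counts in all. Kng2 and Kng1, which encode kininogens, the precursors of kinins and also cystatin-domain proteins, had 25 and 9 counts in all. Thus the 4 fetuin relatives of this cluster (Ahsg, Hrg, Kng1 and Kng2) had at most 5 counts in any library.

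Of the neighbours tested, Dnajb11, a chaperone of the endoplasmic reticulum, had 44.6 ± 3.68 CPM in Het (SD, n = 5) and 43.2 ± 2.62 CPM in WT (SD, n = 8), which differed by 0.04 ± 0.09 on the log2 scale (SE, edgeR adjusted p = 0.941). Eif4a2, an RNA helicase of translation initiation, had -0.07 ± 0.10 (0.909). Tbccd1 had 0.01 ± 0.19 (0.997), and Rfc4, a subunit of the clamp loader of DNA replication, had 0.02 ± 0.15 (0.984). The remaining tested neighbour, the small nucleolar RNA gene Gm24616 within Eif4a2, had -0.32 ± 0.35 (0.883). With 0.0857% of all genes tested called, a count of 0 among these 5 neighbours is near the background.

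**Figure D2:**
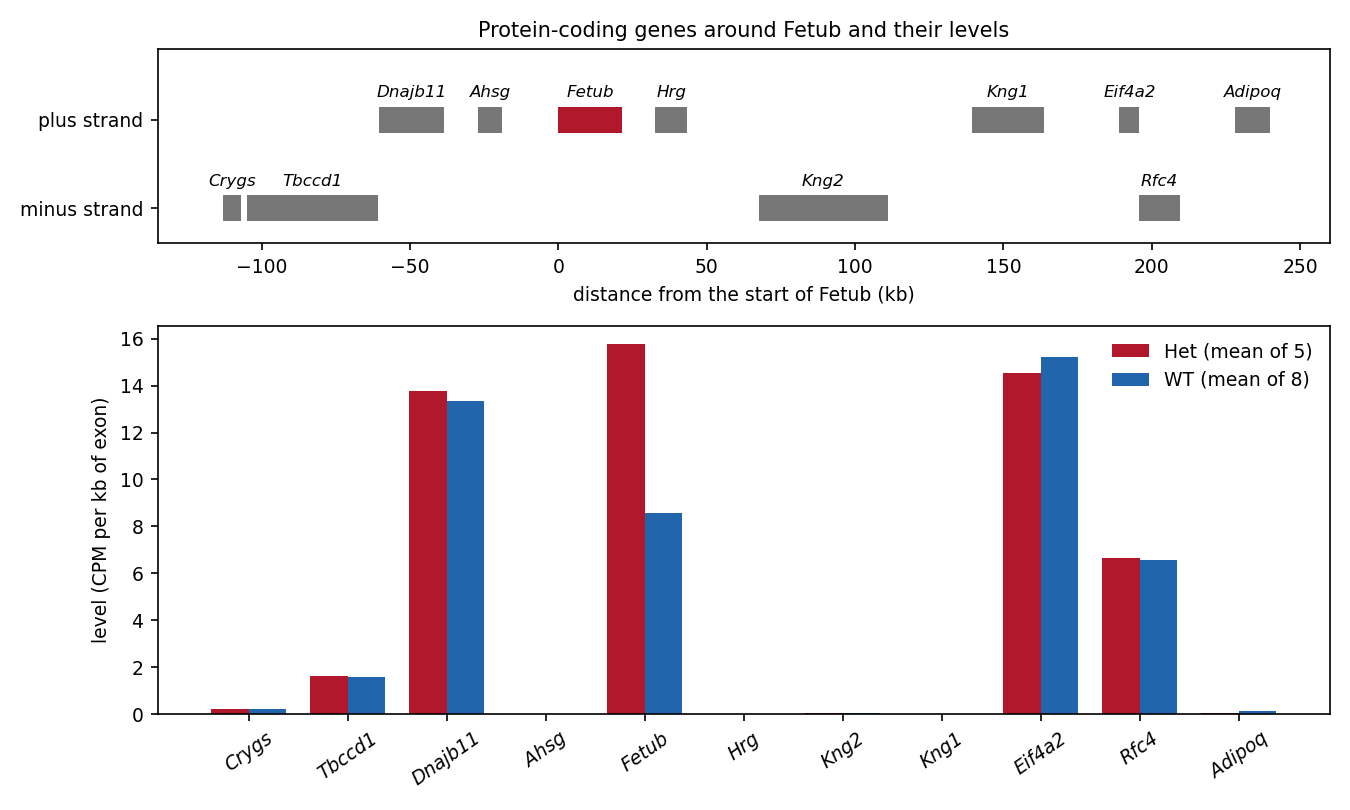
Protein-coding genes of the count table around Fetub, drawn to scale by distance from the Fetub start (kb, upper panel), and their mean level in 5 Het and 8 WT libraries (CPM per kb of exon, linear axis, lower panel). Fetub is at 15.8 CPM per kb in Het and 8.57 CPM per kb in WT, whereas the bars of Dnajb11, Eif4a2, Rfc4 and Tbccd1 are nearly level between genotypes and those of Ahsg, Hrg, Kng1 and Kng2 lie at or near 0.

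Cst3 was the most abundant member and had overlapping levels in the genotypes. Cst3 (ENSMUSG00000027447, chromosome 2, 148871722 to 148875692, minus strand) had 517, 492.9, 475, 562 and 583 CPM in the Het libraries, against a lowest value of 410 CPM, a median of 500.5 CPM and a highest value of 636 CPM in the 8 WT libraries. All 5 Het values fell inside the WT range. The log2 fold change was 0.07 ± 0.12 (SE), and within prefixes 1, 4 and 5 the differences were 0.14, 0.04 and -0.01 (in prefix 4 without WT 4-4, -0.06).

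Cstb, the intracellular stefin, likewise overlapped. Cstb (ENSMUSG00000005054, chromosome 10, 78425669 to 78427622, plus strand) had 59.2, 40.9, 50.4, 61.9 and 54.7 CPM in the Het libraries, and a lowest value of 44.7 CPM, a median of 51.5 CPM and a highest value of 74.0 CPM in the 8 WT libraries. The lowest value of all came from Het 4-2 and the highest from WT 5-1. The log2 fold change was -0.01 ± 0.13 (SE), with differences of 0.27, -0.17 and -0.14 within prefixes 1, 4 and 5.

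Cst6, the cystatin known from cornified epithelia and hair follicles, was low but detected in every library. Cst6 (ENSMUSG00000024846, chromosome 19, 5344705 to 5349574, minus strand) had 69, 63, 108, 61 and 78 counts in the Het libraries, which is 3.20, 2.65, 3.80, 2.501 and 3.43 CPM. In the 8 WT libraries the counts were 45 to 106, with a lowest level of 1.83 CPM, a median of 3.13 CPM and a highest level of 4.12 CPM. The groups overlapped, and WT 4-4 was again the lowest. The log2 fold change was -0.02 ± 0.20 (SE), with differences of -0.00, 0.24 and -0.28 within prefixes 1, 4 and 5. Without WT 4-4 the log2 fold change was -0.10, and the prefix 4 difference turned to -0.03. No annotated gene lies on the opposite strand of Fetub, Cst3, Cst6 or Cstb, so the unstranded counting mixes in no annotated antisense gene.

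To compare levels between genes, CPM were divided by the length of all annotated exons. Cst3 had 415.5 ± 36.0 CPM per kb in Het (SD, n = 5) and 394.9 ± 56.6 CPM per kb in WT (SD, n = 8). Cstb had 88.6 ± 13.7 CPM per kb in Het and 89.4 ± 15.6 CPM per kb in WT. Fetub had 15.8 ± 1.60 CPM per kb in Het and 8.57 ± 1.95 CPM per kb in WT, and Cst6 had 0.762 ± 0.132 CPM per kb in Het and 0.771 ± 0.167 CPM per kb in WT.

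The order Cst3, Cstb, Fetub, Cst6, Ahsg held in 5 of 5 Het and 8 of 8 WT libraries, and the ranges of neighbours in this order did not overlap over all libraries. Among 16289 tested genes with a length, whose median level was 2.40 CPM per kb, the members stood at percentile 99.7 (Cst3), 98.1 (Cstb), 82.2 (Fetub) and 25.7 (Cst6). The Cst6 values rest on an exon length of 4090 bases, and its longest annotated transcript has 3951. If shorter transcripts made up most of its RNA, its level per length and its percentile are too low. Counts per gene do not tell which Cst6 transcripts were present. The ratio of Cst3 to Cstb per length was 4.16 to 5.74 in Het and 3.38 to 5.44 in WT.

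The library prefix was a contrast that did not enter the choice of members. With genotype in the model, edgeR called 992 of 16328 genes for the prefix (6.08%), and none of the 4 members tested was among them. Cstb and Cst3 had the smallest adjusted p of the members. The test takes all prefixes together, and its edgeR adjusted p was 0.187 for Cstb and 0.264 for Cst3. As a description, prefix 5 differed from prefix 1 by 0.26 on the log2 scale for Cstb and by 0.24 for Cst3. Fetub and Cst6 had adjusted p of 0.582 and 0.887, and no member was called by any of the other tools, filters or left-out libraries tried for this contrast.

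No pair of members passed the multiple-testing threshold for varying together. For the 6 pairs of the 4 detected members, log2 CPM were correlated over the 13 libraries after subtracting the genotype means. The secreted Cst3 and the intracellular Cstb had Pearson's r = 0.575 (permutation p = 0.0405, adjusted 0.106) and Spearman's rho = 0.692 (permutation p = 0.011, adjusted 0.0663). Without the 2 libraries farthest from the Cst3 median r was 0.64. With prefix means also subtracted r was 0.206, and whether the relation holds within prefixes was not tested. Fetub and Cst6 had r = 0.688 (permutation p = 0.0368, adjusted 0.106) but rho = 0.17 (permutation p = 0.578, adjusted 0.694), and r was 0.348 without the 2 libraries farthest from the Fetub median and 0.656 with prefix means also subtracted. The other 4 pairs had r of 0.275 to 0.565 and rho of 0.00549 to 0.478, with adjusted permutation p of 0.106 to 0.993.

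By the same measure, the genes of most similar library-to-library pattern were sought among 13890 genes whose log2 CPM averaged 0 or more. The 13 libraries share depth and composition, and these correlations are descriptions. For Fetub they were Cdhr3, a cadherin-related gene (r = 0.986), Trit1, a tRNA-modifying enzyme (0.967), and Zfp759, a zinc finger gene (0.953). Without WT 4-4 the values were 0.857, 0.789 and 0.609. These genes then ranked 6, 22 and 260, so which genes are nearest to Fetub depends on that library. For Cst3 they were Polr2g, a subunit of RNA polymerase II (0.955), Sec61g of the protein translocon (0.926) and Aga, a lysosomal enzyme (0.906).

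For Cstb the nearest genes were Ppia, the prolyl isomerase cyclophilin A (0.974), Fundc2 (0.967) and Atp5c1, a subunit of ATP synthase (0.963). For Cst6 they were Vrk3 (0.906), Tmem11 (0.901) and Uqcr11, a subunit of respiratory complex III (0.895). Without WT 4-4 the values for Cst6 were 0.834, 0.835 and 0.784, with ranks of 8, 7 and 35. Cstb and its 3 nearest genes stayed at r of 0.964 or more without WT 4-4. With prefix means also subtracted, 5 of these 12 genes were still among the nearest 3 of their member, and with Spearman's rho 4 of 12 were.

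Genes related to the members by family or role were compared between Het and WT as 6 lists of 73 genes. The lists were other cystatins, cysteine cathepsins and legumain, astacins, mineralization regulators, transglutaminases and cornified envelope genes, and inhibitors of other protease classes. Of the 73, 72 were matched by symbol (Cst5 was not) and 47 passed the filter. None passed the edgeR threshold in either direction, against 0.0857% of all genes tested. Of the 47, 25 had a positive and 22 a negative log2 fold change, with a median of 0.02 (all genes tested, -0.00), and 3 had an unadjusted p under 0.05 (6.38%, against 6.90% of all genes tested). The same count of 0 was found with DESeq2, limma-voom and every other alternative. For the library prefix edgeR called 5 of the 47, against 6.08% of all genes tested.

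Few other cystatins were abundant enough to test. Of 19 cystatins and cystatin-fold genes matched, 6 (Cst8, Cst9, Cst10, Cst11, Cst12 and Cst13) had 0 counts in all libraries, 8 had too few counts to test and 5 were tested. Latexin (Lxn), a carboxypeptidase inhibitor, was the highest at 23.5 ± 2.23 CPM in Het (SD, n = 5) and 24.4 ± 3.66 CPM in WT (SD, n = 8). The stefin A genes Stfa2, Stfa2l1 and Stfa3 are near-identical copies whose reads the counting could split, and each had under 1 CPM on average in both genotypes. The members of smallest p were Camp, a neutrophil antimicrobial peptide precursor with a cystatin-like domain (0.39 ± 0.35, edgeR adjusted p = 0.849), and Stfa2 (-0.24 ± 0.47, 0.941). Camp was 1.83 to 7.71 CPM in Het and 1.23 to 4.63 CPM in WT, and the summed macrophage and other immune markers were 61.9 to 133 CPM in Het and 70.1 to 106 CPM in WT. Their part in the Camp values was not tested. Camp was called for the library prefix (edgeR adjusted p = 0.0483), with prefix 5 above prefix 1 by 0.88 on the log2 scale.

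Proteases of the families that cystatins inhibit were expressed. All 11 listed, which are cysteine cathepsins and legumain, passed the filter, with 8 positive and 3 negative log2 fold changes, a median of 0.05 and none past the threshold. Ctsb, the most abundant, had 1796 ± 236 CPM in Het (SD, n = 5) and 1681 ± 206 CPM in WT (SD, n = 8). Lgmn (legumain) had 48.9 ± 7.86 CPM in Het and 47.1 ± 7.64 CPM in WT. The smallest p were those of Ctss, the cathepsin of antigen-presenting cells (0.48 ± 0.27, edgeR adjusted p = 0.762), and Ctso (0.20 ± 0.17, 0.841). Ctss was spread widely in Het, from 2.43 to 10.1 CPM, and lay between 2.38 and 5.79 CPM in WT.

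Of the 6 astacin metalloproteases, the family of ovastacin, only Bmp1 and Tll1, which cleave procollagens and other matrix proteins, passed the filter. Fetuin-B is not taken to inhibit every astacin, and its action on Bmp1 and Tll1 was not examined here. Bmp1 had 52.7 ± 8.19 CPM in Het (SD, n = 5) and 61.2 ± 9.20 CPM in WT (SD, n = 8), a difference of -0.21 ± 0.12 on the log2 scale (SE, edgeR adjusted p = 0.761). The groups overlapped, and the highest Bmp1 value, 79.6 CPM, came from WT 4-4, the library with the lowest Fetub. Bmp1 was also called for the library prefix (edgeR adjusted p = 0.0207), and its Het minus WT differences within prefixes 1, 4 and 5 were -0.13, -0.21 and -0.27 (in prefix 4 without WT 4-4, -0.13). Tll1 had 0.07 ± 0.12 (0.936). The other 4 had too few counts to test, among them Astl, which encodes ovastacin (26 counts in all). Tll2, singled out after its values were seen, had 2 to 9 counts per Het library against 0 to 2 per WT library, and was not called when the filter on low counts was dropped.

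**Figure D3:**
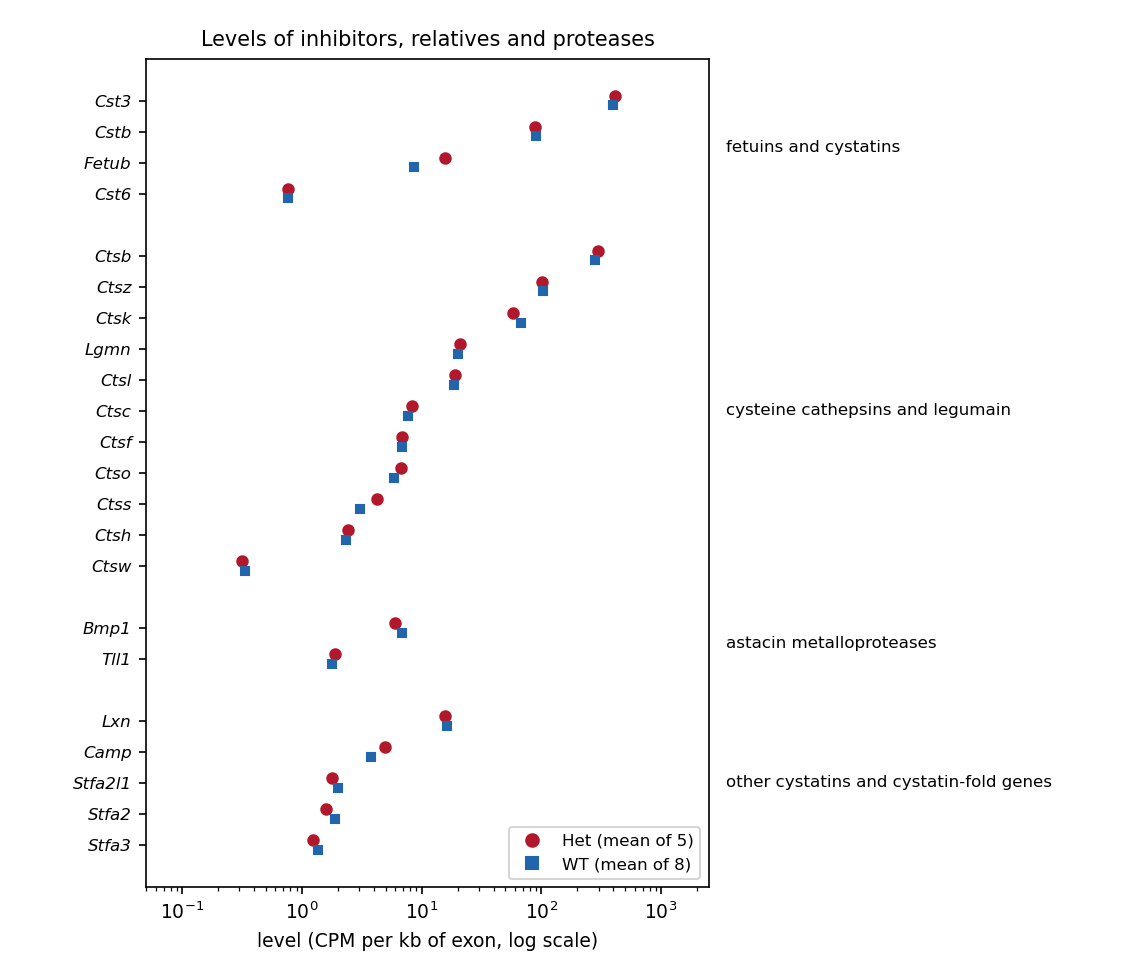
Mean level in 5 Het (circles) and 8 WT (squares) libraries, in CPM per kb of exon (log axis). Shown are the detected fetuins and cystatins, the tested cysteine cathepsins, legumain and astacins, and the tested cystatin relatives. Cst3 and Ctsb lie near the top of the scale and Cst6 and Ctsw below 1 CPM per kb, and the Fetub symbols, at 15.8 in Het and 8.57 in WT, lie farther apart than those of the other members.

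Mineralization regulators were included because fetuin-A binds calcium phosphate. Of 10, 8 were tested, with 3 positive and 5 negative log2 fold changes and a median of -0.03. Slc20a2, a phosphate importer, was 133.9 ± 16.6 CPM in Het (SD, n = 5) and 107.5 ± 17.8 CPM in WT (SD, n = 8), a difference of 0.32 ± 0.12 on the log2 scale (SE, edgeR adjusted p = 0.574). Enpp1, which makes the mineralization inhibitor pyrophosphate, had -0.27 ± 0.14 (0.753). Both overlapped between genotypes.

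Partners of Cst6 in cornifying epithelium were mostly below the filter. Of 7 transglutaminases and cornified envelope genes, Tgm1 and Tgm2 were tested and Tgm5 had 0 counts. Tgm1, which crosslinks the cornified envelope, was low, at 0.458 to 1.52 CPM in Het and 0.172 to 1.19 CPM in WT (log2 fold change 0.80 ± 0.43, SE, edgeR adjusted p = 0.753). Tgm2 had -0.12 ± 0.20 (0.934) and was called for the library prefix (edgeR adjusted p = 0.00752), with differences of 0.01, -0.10 and 0.12 within prefixes 1, 4 and 5 (in prefix 4 without WT 4-4, 0.06). The summed oral mucosa and cornified epithelium markers were 5.73 to 9.40 CPM in Het and 6.03 to 39.5 CPM in WT. The highest sum came from WT 1-3, also the WT library with the most Tgm1, and without it the WT sums reached 8.39 CPM.

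The list called inhibitors of other protease classes held 19 genes, not all of which are such inhibitors, Serpinh1 and Cast among the exceptions. All 19 were tested, with 11 positive and 8 negative log2 fold changes, a median of 0.07 and none past the threshold. Pebp1, which binds and inhibits RAF kinase, had the smallest p, at 21.7 ± 2.58 CPM in Het (SD, n = 5) and 17.3 ± 1.22 CPM in WT (SD, n = 8), a difference of 0.33 ± 0.10 on the log2 scale (SE, edgeR adjusted p = 0.390). Its groups overlapped through Het 4-2 at 18.4 CPM.

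**Figure D4:**
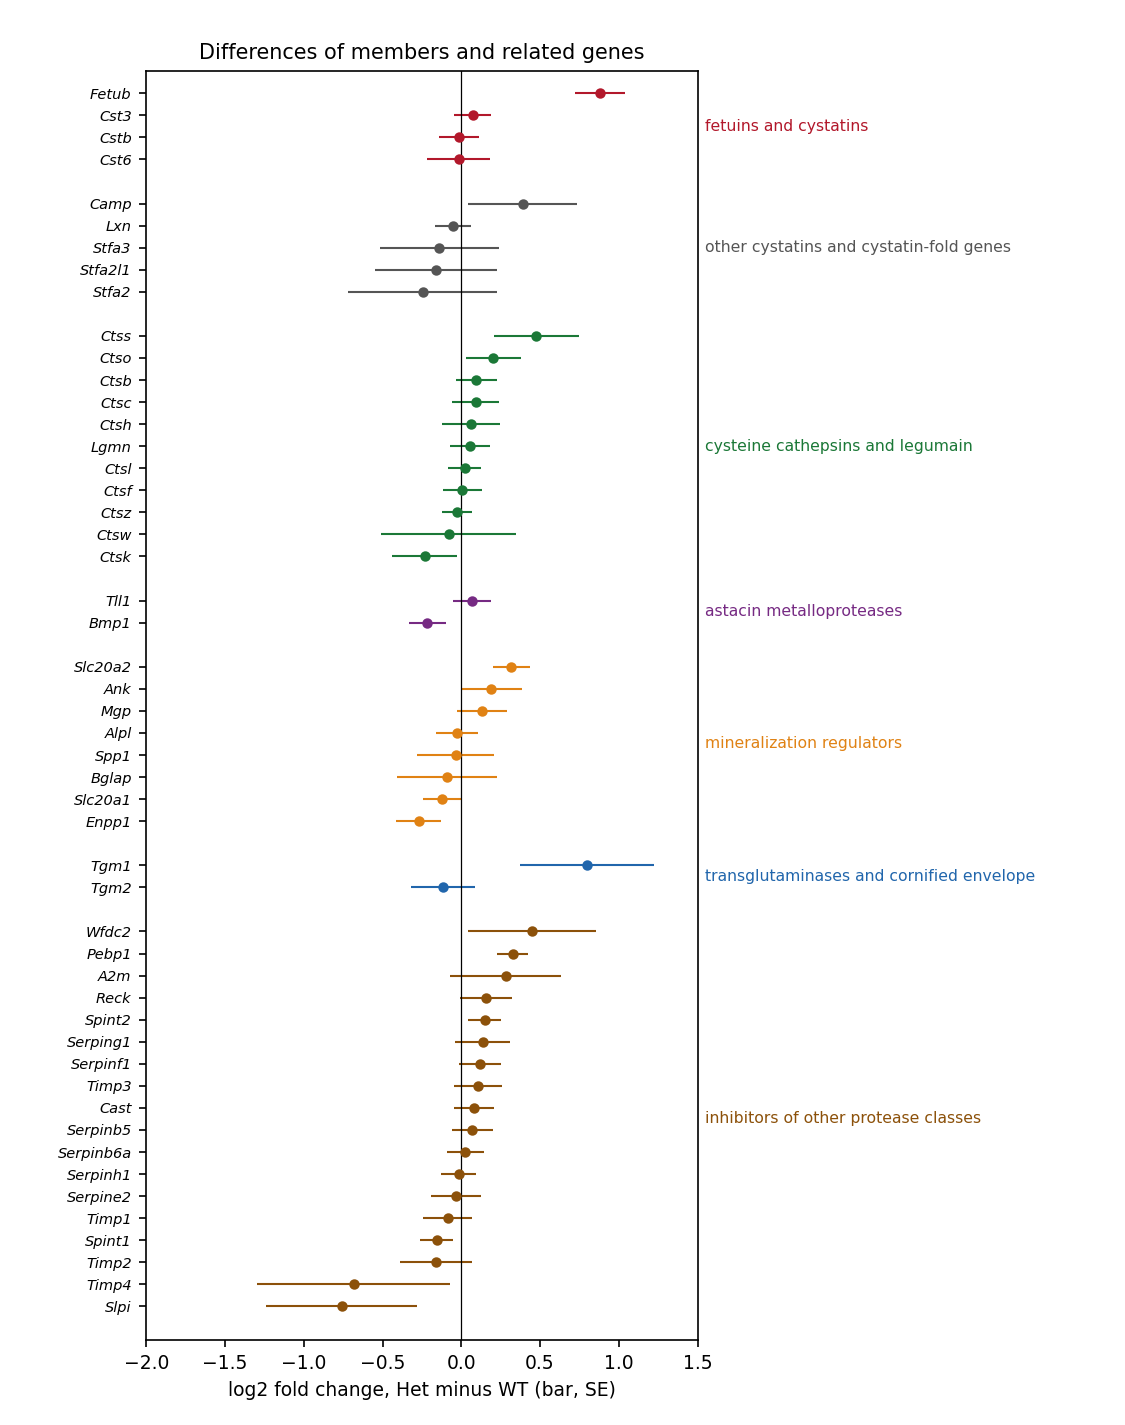
Log2 fold change (Het minus WT, with its SE) of the 4 members tested and of tested genes in the 6 related lists, ordered by size within each list. Fetub is at 0.88 and the other members lie between -0.02 and 0.07. Tgm1, at 0.80, is a gene of low counts with a wide bar.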

How the data were processed

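Per the labels' protocols, enamel organ RNA was prepared with the Nextera XT kit, which does not mark strand, and sequenced in single reads of 75 bases (NextSeq 500). The submitters' processing notes name STAR 2.5.2a, GRCm38, DESeq2, edgeR and limma. The sources used here name no counting tool or annotation. Every test used the table of raw counts that the authors deposited (48733 features, 13 libraries). Of its features, 24 are spike-in and transgene sequences (at most 0.000177% of a library) and were left out. The authors also deposited a filtered count table (21223 features, 100% of counts identical) and a normalized signal per gene, TMM-scaled CPM by its name, which within a library is the count times 1 constant and entered no test. Columns name genotype but no replicate number of the labels. The lowest chi-square over 78 library pairs was 11.2 per gene, so no library repeats another.

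With filterByExpr (count minimum 10), 16328 genes were tested with edgeR 4.0.16 in R 4.3.3 (TMM, robust glmQLFit, glmQLFTest, Benjamini-Hochberg over all genes, threshold 0.05). Standard errors come from the F statistic, and the common biological coefficient of variation was 0.227. Values in log2 CPM have a prior count of 2. Lengths and positions are from GENCODE M21 (GRCm38), as are symbols (48349 genes named). DESeq2 1.42.0 and limma 3.58.1 were alternatives. Scripts were tested on simulated data. The members and lists were chosen with earlier results of these data known. Genes named are the members, each list's genes past the threshold or else its 2 of smallest p, tested neighbours within 250 kb of Fetub, and the 3 genes most like each member, skipping Gm and Rik symbols. Any others were named after their values were seen. For 1 gene of the lists, which the counts include, values are not reported here.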

Additional observations from a re-analysis of the deposited data

Results flagged for a closer look

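In 40 groups of libraries (the tested members, named list genes and Fetub neighbours, in each genotype), 3 held a library whose gap to the nearest other was large against the range of its group. Chance alone gives about 1 in 20. Fetub in WT 4-4 was at 2.95 log2 CPM (188 counts), against 4.08 in the next lowest WT library, a gap of 0.834 of the WT range. Cst6 in the same library was at 0.937 log2 CPM (45 counts), against 1.54 in the next lowest, a gap of 0.527 of the range, just past the critical value of 0.526. WT 4-4 had 23761054 total counts. Among the 8 WT libraries it had the lowest summed secretory ameloblast markers (145000 CPM) and stratum intermedium and papillary layer markers (367 CPM). Its summed maturation ameloblast markers (55100 CPM) ranked 7 of 8 from the lowest. The secretory sum was made up mostly of Ambn and the maturation sum mostly of Odam. WT 4-4 had the highest summed markers of mesenchyme (11600 CPM), osteoblast (1130 CPM), osteoclast (415 CPM) and endothelium (47.4 CPM). The part of these cell types in its low Fetub and Cst6 values was not tested. Dnajb11 in Het 5-5 was at 5.25 log2 CPM (928 counts), against 5.51 in the next lowest Het library.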

How the results depend on the processing

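The log2 fold change of Fetub was positive in all 25 alternatives (0.77 to 0.94), a sign largely fixed because the groups were apart. It passed the threshold in 5 of 13 fits that left out 1 library and in 9 of the other 12, and missed it without all libraries of prefix 1 (0.93, adjusted p = 0.587), prefix 4 (0.79, 0.0561) or prefix 5 (0.94, 0.271), where 0 members were called. The DESeq2 adjusted p was 0.000394. Leaving out 1 library gave 0 to 1 member called. Cst3 was positive in all 25 (0.03 to 0.13), whereas Cst6 (-0.15 to 0.11) and Cstb (-0.12 to 0.09) each took a positive sign in 7 of 25, and none of these 3 was called in any.

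Over all genes the Het and WT comparison called 14, against 71 with DESeq2, 27 with no filter, 25 with at least 1 CPM in 5 libraries, 25 with limma-voom and sample weights, 30 with the prefix as a term, 6 to 22 leaving out 1 library, and 0, 1 and 2 without prefix 1, 4 and 5 (731, 909 and 1027 at an unadjusted p under 0.05). The prefix contrast called 992 genes, 2140 with the DESeq2 likelihood ratio test and 280 to 1466 leaving out 1 library. Of the 12 genes named as most like a member, 5 remained with prefix means subtracted and 4 with Spearman's rho. With the longest transcript as length, Cst3 had 611.6 CPM per kb in Het and 581.4 in WT, and the order of members was kept. The cause of these changes was not tested. No paired analysis was possible because the columns carry no replicate numbers of the labels, while the prefix entered as a term above. The floor of 3 counts covers counting error only. Cst6 had 45 to 108 counts per library.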
